A study of Drosophila melanogaster with 9 samples.

Results

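In Drosophila ovarian follicles, 113 of the 7708 listed genes that still carry a systematic CG symbol were more abundant at stage 10 than at stage 8 and less abundant in stage 10 follicles of EcR mutant females. The 113 genes were chosen by 3 conditions on arithmetic group means of FPKM (fragments per kilobase of transcript scaled to the size of the library): a wild-type stage 10 mean of at least 5, at least 2 times the stage 8 mean, and an EcR mutant mean of at most 0.6 times the wild-type stage 10 mean. A CG symbol is the running name that genome annotation gave to a predicted gene, so the genes have no common function by definition. Current annotation gives a descriptive name to 16 of them. The file listed 15602 genes in all. Of the 3009 CG genes at 5 FPKM or more in wild-type stage 10, 239 met the stage condition, and 113 of these (47.3%) also met the mutant condition. Among genes with other symbols the same conditions held for 144 of 370 (38.9%). The remaining 126 CG genes that met the stage condition but stayed above 0.6 in the mutant are called the kept risers here.

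A follicle, or egg chamber, is an oocyte with its sister nurse cells inside a sheet of somatic follicle cells. Between stage 8 and stage 10 the oocyte takes up yolk and lipid and the follicle cells turn to making the eggshell, first the vitelline membrane and then the waxy layer and the chorion. Ecdysone, the insect steroid hormone, acts through the nuclear receptor EcR and its partner usp, and in the ovary it is known to be needed for follicles to pass the middle stages of oogenesis and for eggshell gene expression.

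Poly(A) RNA was sequenced from 3 groups of 3 libraries, each made from 100 staged follicles of adult females. Stage 8 and stage 10 follicles came from wild-type females, and a second set of stage 10 follicles came from females with a temperature-sensitive EcR mutation (EcRts). All 9 libraries carry the strain label Oregon R and an age of 6 to 14 days, although the growth protocol gives a minimum of 4 days, and all females were well fed before dissection. The wild type stayed at 25 °C, whereas mutant females were shifted to a restrictive temperature 2 days after eclosion. Genotype and temperature therefore differ together and cannot be told apart. Neither the EcR alleles nor the restrictive temperature is stated in the labels. The labels also do not say whether replicate libraries had separate animals, so each p-value reflects the spread of these libraries only, which may be technical. The mutation was carried by the whole animal, not by the follicle alone.

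Sequencing depth, read from the width of the deposited confidence intervals, was 17.5 to 21.7 M fragments per wild-type library and 27.2 to 33.3 M per EcRts library. Genes not annotated as protein coding took 20.2% to 21.2% of the summed FPKM in wild-type stage 10, 37.4% to 39.7% in EcRts and 30.6% to 33.1% at stage 8. With FPKM scaled to the protein-coding total instead, 82 of the 113 genes met the rule and no further gene did. Within the protein-coding sum, the 113 genes took 0.999% to 1.04% in wild-type stage 10, 0.453% to 0.475% in EcRts and 0.103% to 0.179% at stage 8. Follicle epithelium markers were abundant in every library, while the 5 hemocyte markers and 3 of the 4 neuron markers stayed under 1 FPKM. The 8 muscle markers summed to 180 to 184 FPKM at stage 8, 269 to 281 in wild-type stage 10 and 191 to 207 in EcRts, mostly from Tm1. Of the 5 tested, 4 were higher in EcRts than at stage 8, beside 39.8% of all tested genes. Against wild-type stage 10, Mlc2 (means of 0.678 and 1.66 FPKM) and up (1.25 and 2.72) were higher in EcRts and Tm1 (265 and 181) was lower. Act57B (7.34 and 9.55) and wupA (1.18 and 2.48) had no call. Mhc (0.503 and 1.06), bt (0.126 and 0.154) and sls (0.182 and 0.0999) were not tested. The 5 fat body markers summed to 2.68 to 3.80, 8.03 to 15.8 and 3.94 to 16.2 FPKM in the same order, led by Rfabg, whose highest value was 14.2. The part of these tissues in the results was not tested. EcR itself had no call in any comparison, with means of 21.0 FPKM in wild-type stage 10, 20.6 in EcRts and 19.4 at stage 8. A temperature-sensitive mutation acts on the protein, so that level checks nothing about the labels. In whole follicles, fewer cells of a type and less RNA per cell cannot be told apart.

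Most of the 113 genes were even among the wild-type stage 10 libraries, but 13 differed by 3-fold or more between them, and these stand apart from the rest. CG43090 was at 50.6 FPKM in wild-type stage 10 replicate 1 and was listed at 0 in the other 8 libraries. CG43074 was at 29.1 FPKM in that library and between 0.297 and 1.96 in the others. Both are members through 1 library, and neither met the rule without it. Genes of the spermatheca, the sperm storage organ, moved with that library too. Their sum over 8 genes was 38.6 FPKM there and at most 0.512 elsewhere. Send1 reached 11.5 FPKM, CG31681 reached 9.85 and Send2 was listed at 0 there. The part of that organ's RNA in the values of CG43090 and CG43074 was not tested.

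Another 8 uneven genes share a different order of libraries. They are CG10513, CG10514, CG11892 and CG9259, which belong to the EcKL family of kinase-like proteins, the solute transporter genes CG7720 and CG17752, and CG15155 and CG13309. CG11892 was at 10.4, 35.7 and 24.4 FPKM in wild-type stage 10 replicates 1, 2 and 3, at 5.11, 5.73 and 0.468 at stage 8, and at 4.29, 11.4 and 7.62 in EcRts. In each of the 8 genes, replicate 1 was the lowest and replicate 2 the highest of the wild-type stage 10 libraries, and replicate 3 was the lowest at stage 8. Without wild-type stage 10 replicate 2, CG7720, CG17752, CG15155 and CG13309 did not meet the rule. CG13309 also failed it without stage 8 replicate 3 or EcRts replicate 3. Uro, the urate oxidase that marks the Malpighian tubule (the fly's excretory organ), stood at 2.77, 13.6 and 10.96 FPKM in the same wild-type stage 10 libraries and at 9.98, 2.70 and 0.538 at stage 8. The summed level of 12 tubule genes ran 26.0, 11.4 and 2.80 at stage 8, 11.1, 41.1 and 31.4 in wild-type stage 10, and 7.57, 16.4 and 5.78 in EcRts, with 3 of the 12 under 1 FPKM everywhere. Both the tubule and the spermatheca lists were written after these values had been seen, and the part of such tissue in the 8 genes was not tested. The same 3 ranks (lowest and highest in wild-type stage 10, lowest at stage 8), whatever the spread, were found in 25 of the 113 genes. They were found in 6.39% of all tested genes. These ranks were read from the 8 genes, which are among the 25, so the 2 shares are not compared. Stage 8 replicates 1 and 2 have no common order: CG11892 was higher in replicate 2 and Uro in replicate 1. Jhbp5, CG14187, CG9990, CG33970, CG9850 and CG3168, all described below, are among the 25.

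The neighbouring genes CG42704 and CG42705 follow neither order. CG42704 was at 82.9, 226 and 0.901 FPKM in wild-type stage 10, at 0.400, 1.01 and 0.442 at stage 8, and listed at 0 in all EcRts libraries. CG42705 was at 41.3, 99.3 and 0.302 FPKM in wild-type stage 10 and listed at 0 in all EcRts libraries. Replicates 1 and 2 alone carry the high means, and replicate 3 lies at the stage 8 level. The last uneven gene, CG12517, was at 16.6, 3.72 and 18.8 FPKM in wild-type stage 10. It did not meet the rule without wild-type stage 10 replicate 1 or 3, or without EcRts replicate 1 or 2. Without these 13 genes, 100 members remain.

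**Figure D1:**
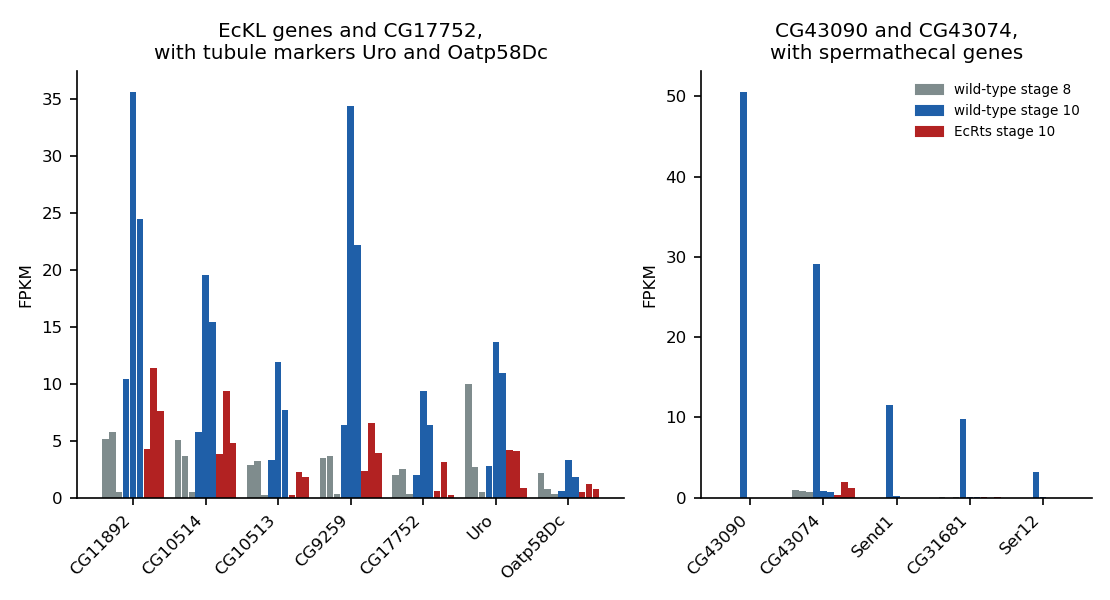
FPKM of uneven members in each library, 1 bar per library in the order replicates 1, 2 and 3 of wild-type stage 8 (grey), wild-type stage 10 (blue) and EcRts stage 10 (red). In the left panel 4 EcKL genes and CG17752 share with the tubule genes Uro and Oatp58Dc the order of the wild-type stage 10 libraries; in the right panel CG43090 and CG43074 are high in the same wild-type stage 10 library as 3 spermathecal genes.

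The values that chose the 113 genes are given here as a description, without a test. The median of the group means was 18.5 FPKM (range 5.03 to 1335) in wild-type stage 10, 3.50 at stage 8 and 7.83 in EcRts. The stage 10 mean was 5.55 times the stage 8 mean in the median gene, with 24 genes at 10-fold or more and 21 under 3-fold. EcRts stood at 0.408 of the wild-type stage 10 mean in the median gene. Expressed as the share of the stage difference that was still present in EcRts, the median was 25.7%. There were 56 genes under 25%, 53 between 25% and 50%, and 4 above 50%. In 17 genes the EcRts mean was not above the stage 8 mean, and the lowest share was -27.1%. The stage 10 libraries all exceeded the stage 8 libraries in 106 of the 113 genes, beside 51.3% of all 8238 tested genes. They all exceeded the EcRts libraries in 102, beside 43.2%, and exceeded both groups in 100, beside 32.0%. The rule used these contrasts, so the counts are not read further.

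**Figure D2:**
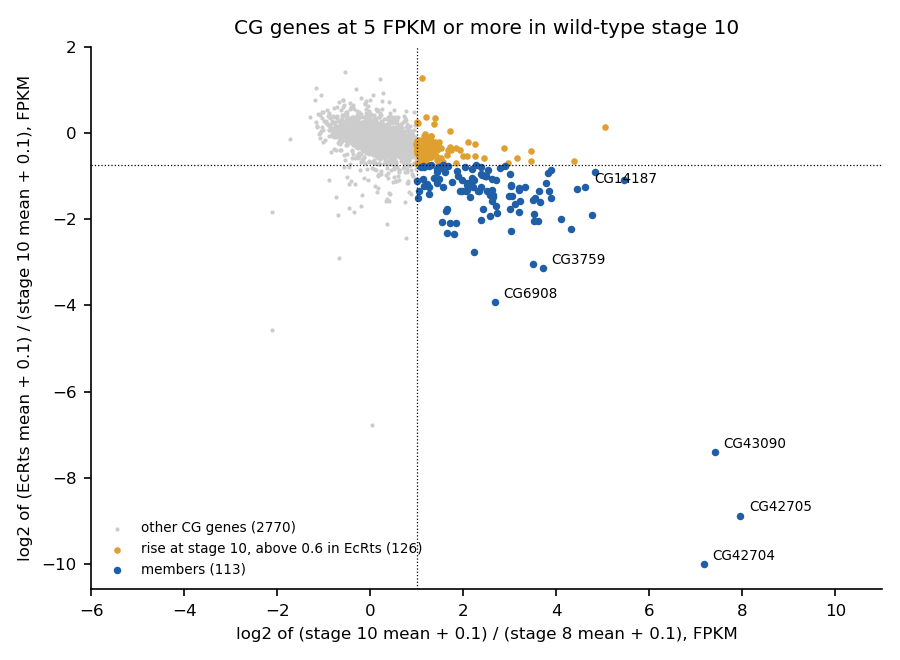
CG genes at 5 FPKM or more in wild-type stage 10, by the log2 ratio of stage 10 to stage 8 means (x axis) and of EcRts to wild-type stage 10 means (y axis), with 0.1 FPKM added to each mean. Dotted lines mark the 2-fold and 0.6 conditions; the 113 members (blue) lie right of and below them, and CG43090, CG42704 and CG42705 lie far from the rest.

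**Figure D3:**
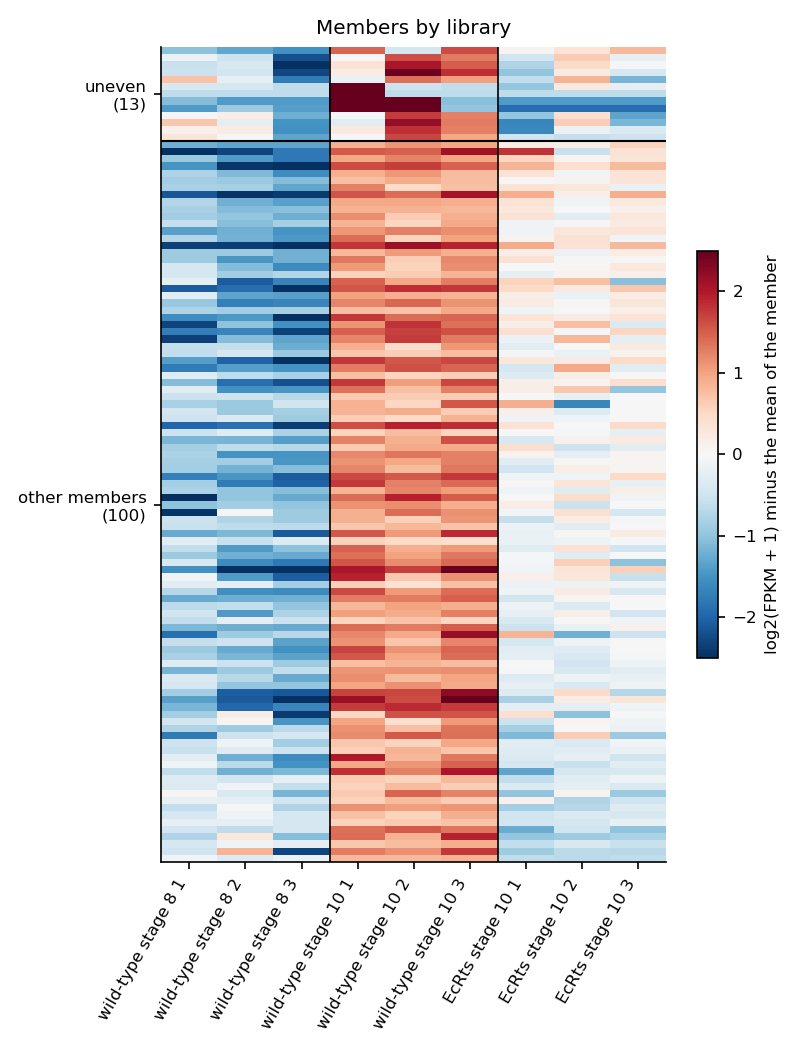
The 113 members (rows) in the 9 libraries (columns), as log2(FPKM + 1) minus the mean of the member, with the 13 uneven members above the black line. Within each block rows are ordered by the share of the stage difference present in EcRts, highest at the top; the 100 even members are low at stage 8, high in wild-type stage 10 and between these in most EcRts libraries.

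Abundance was concentrated in few genes: 14 reached a stage 10 mean of 100 FPKM, 40 lay between 20 and 100, 24 between 10 and 20, and 35 under 10. CG43134, a 2-exon gene of 82 residues at X:4141346-4141818 (dm3), was the most abundant. It was at 155, 168 and 79.1 FPKM at stage 8, at 1551, 1209 and 1244 in wild-type stage 10, and at 576, 529 and 575 in EcRts. The groups do not overlap, and EcRts lies between the wild-type stages. CG10407, now named Jhbp5 for its family of juvenile hormone binding proteins (3R:11870469-11871693), was at 35.8, 38.7 and 26.8 FPKM at stage 8, 440, 547 and 518 in wild-type stage 10, and 184, 143 and 200 in EcRts. Its locus overlaps that of CG10264, and since the strand setting of the counting is not given, reads of the overlap cannot be assigned to either gene.

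CG14309, which codes for 966 residues (3R:14206851-14210723), was at 53.0, 26.7 and 17.9 FPKM at stage 8, 462, 499 and 417 in wild-type stage 10, and 270, 199 and 258 in EcRts. It kept 49.2% of the stage difference, the highest share of the 10 most abundant genes, and it overlaps CG7675, which is also expressed. CG14187, coding for 126 residues (3L:20105365-20105947), was at 17.4, 17.2 and 8.64 FPKM at stage 8, 316, 410 and 349 in wild-type stage 10, and 175, 117 and 161 in EcRts. It had the largest stage ratio of the 10 most abundant genes, 24.8. CG13299, CG14834, CG11381, CG4009 and CG9747 had stage 10 means of 376, 313, 221, 205 and 154 FPKM and EcRts means of 152, 124, 81.1, 73.4 and 71.8. Their groups do not overlap in any pair. CG13114 was the least even of the 10, at 97.9, 39.0 and 24.5 FPKM at stage 8, 404, 169 and 235 in wild-type stage 10, and 115, 129 and 71.7 in EcRts. It was called higher in EcRts than at stage 8 only without stage 8 replicate 1 (limma adjusted p = 0.00974) or with the replicate numbers as a block (adjusted p = 0.0310).

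**Figure D4:**
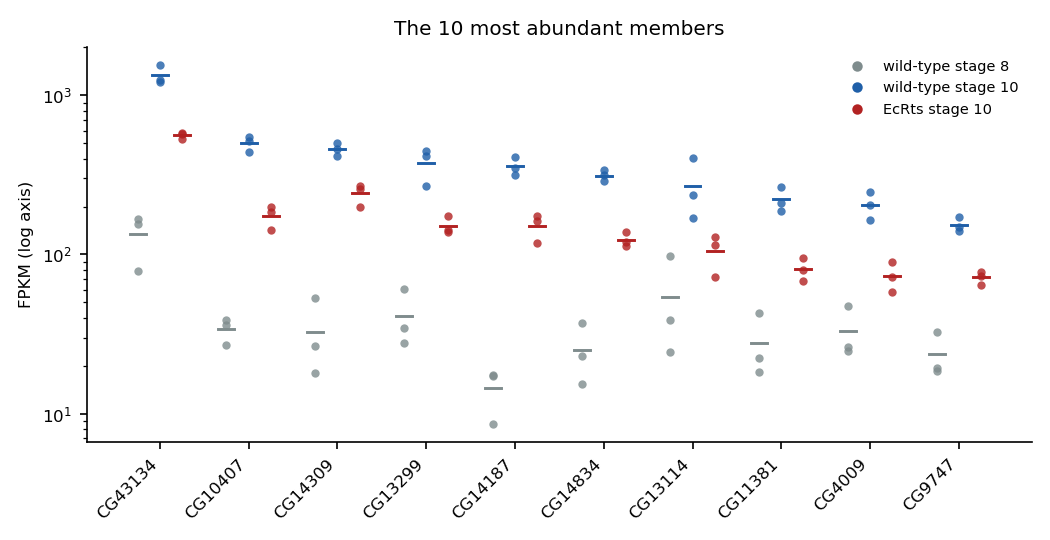
FPKM (log axis) of the 10 most abundant members in each library; points are libraries and horizontal marks are group means. Stage 8 is lowest and wild-type stage 10 highest in mean for each gene, and in CG13114 a stage 8 library at 97.9 FPKM overlaps the EcRts libraries.

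Roles were assigned to 32 of the 113 genes from general knowledge of their families, and several of these families handle lipids. The other 81 were placed in no role group, and 77 of these were tested. Of the 77, 47 were higher in EcRts than at stage 8 in the test described next, beside 39.8% of all tested genes. Another 2 were lower, beside 21.6%, and 28 had no call. The comparison of EcRts stage 10 with wild-type stage 8 is the contrast that the rule did not set directly. Both of its means entered the rule, however, which took genes with a low stage 8 mean beside stage 10, so the counts of calls are given as a description and nothing is read from them about the members as a set. It was tested by limma on log2(FPKM + 1), with p-values adjusted by the Benjamini-Hochberg method over all 8238 tested genes. "Higher" or "lower" below means an adjusted p under 0.05 there.

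The 5 ABC transporter genes were higher in EcRts stage 10 than at stage 8, beside 39.8% of all tested genes. Of these, 3 belong to the ABCH class, and the ABCH genes snu and osy are known for transport that builds the lipid barrier of the cuticle in Drosophila. CG9990, now named snu, was at 1.84, 2.21 and 1.01 FPKM at stage 8, 34.1, 41.8 and 39.9 in wild-type stage 10, and 15.6, 12.9 and 18.2 in EcRts. Its EcRts libraries lay 2.64 ± 0.19 (SE) above stage 8 on the log2(FPKM + 1) scale (limma adjusted p = 2.47e-05). CG11147 was at 10.1, 5.91 and 5.96 FPKM at stage 8, 43.6, 48.0 and 45.5 in wild-type stage 10, and 19.6, 15.6 and 19.4 in EcRts, and differed from stage 8 by 1.24 ± 0.18. CG33970, now named osy, was at 3.39, 2.15 and 1.42 FPKM at stage 8, 15.5, 18.8 and 15.7 in wild-type stage 10, and 11.2, 7.83 and 9.55 in EcRts. It kept 50.3% of the stage difference, 1 of the 4 genes above 50%, and it did not meet the rule under any other scaling of FPKM. The locus of CG11147 overlaps CG11030 and that of the ABCG gene CG4822 overlaps CG11455, with wild-type stage 10 means of 38.6 and 195 FPKM. Part of their reads may be shared. CG4822 and the ABCA gene CG34120 (ldd) were close to the threshold, with differences of 0.59 ± 0.22 and 0.29 ± 0.10. Their calls were lost in several alternative fits. For CG4822 the call was lost without stage 8 replicate 2 or 3, wild-type stage 10 replicate 1, or EcRts replicate 2 or 3 (adjusted p from 0.0654 to 0.142). For CG34120 it was lost without stage 8 replicate 2 or 3 or any EcRts replicate (adjusted p from 0.0519 to 0.105). Median-of-ratios scaling also lost both calls (limma adjusted p = 0.0660 for CG4822 and 0.0644 for CG34120). Quantile normalization lost that of CG34120 (adjusted p = 0.359). Both were lost too without the filter on low values, with the replicate numbers as a block, and in a fit of only the 2 groups compared.

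Fatty acid and lipid enzymes gave 6 genes, of which 5 were higher in EcRts than at stage 8 (39.8% of all tested genes were). CG9747, an acyl-CoA desaturase, was at 32.5, 18.6 and 19.4 FPKM at stage 8, 150, 172 and 139 in wild-type stage 10, and 73.2, 64.4 and 78.0 in EcRts. The difference from stage 8 was 1.61 ± 0.20 (log2). The elongases of very long chain fatty acids CG2781 (Elovl7) and CG31522 had stage 10 means of 45.0 and 38.8 FPKM and EcRts means of 20.04 and 20.8. CG5065, a fatty acyl-CoA reductase, which makes the alcohols of waxes, kept 49.0% of its stage difference, with means of 3.76, 18.5 and 10.97 FPKM. CG1941, of the DGAT2 family of acyltransferases, had means of 0.609, 8.11 and 2.78 FPKM. The exception was CG17544, an acyl-CoA oxidase of fatty acid breakdown, at 3.02, 2.91 and 2.29 FPKM at stage 8 and 3.87, 1.70 and 2.21 in EcRts, where the groups overlap (adjusted p = 0.703).

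Among 4 genes for proteins that bind lipophilic ligands, Jhbp5, CG1124 (Jhbp1) and CG5973 were higher in EcRts than at stage 8, against the same 39.8% of all tested genes. CG5973, a CRAL-TRIO domain protein, was at 9.36, 11.4 and 7.02 FPKM at stage 8, 106, 97.6 and 114 in wild-type stage 10, and 30.6, 30.6 and 46.6 in EcRts. CG5958, its neighbour on 2L with the same domain, was already at 37.4, 53.8 and 18.1 FPKM at stage 8 and at 35.7, 54.3 and 48.0 in EcRts, with no call (0.44 ± 0.37, adjusted p = 0.334). Their stage 8 means were 9.24 and 36.4 FPKM and their stage 10 means 106 and 94.7.

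All 4 peptidase genes were higher in EcRts than at stage 8, beside 39.8% of all tested genes, with 17.3% to 35.2% of the stage difference present. CG31661, an aspartic peptidase, was at 6.92, 3.73 and 2.55 FPKM at stage 8, 90.3, 62.0 and 114 in wild-type stage 10, and 10.6, 22.3 and 24.0 in EcRts. CG31926, another aspartic peptidase beside it, CG9850 (sona, a secreted metalloprotease) and CG14526 (Nepl21, a neprilysin-like peptidase) had stage 10 means of 24.6, 41.6 and 6.67 FPKM. Of the oxidases, which can cross-link proteins, the peroxidase gene CG4009 was at 47.6, 26.3 and 24.9 FPKM at stage 8, 246, 164 and 205 in wild-type stage 10, and 71.9, 89.9 and 58.4 in EcRts. It was 1.17 ± 0.27 (log2) above stage 8 in EcRts. CG3759 (Mco1, a multicopper oxidase) was at 10.2, 6.65 and 11.8 FPKM in wild-type stage 10 and only 0.273, 1.33 and 1.42 in EcRts, beside 1.09, 0.376 and 0.453 at stage 8. Its EcRts and stage 8 libraries overlap, and 4.13% of the stage difference was present.

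Of 6 solute transporter genes, the amino acid transporter CG7888 and CG9864, of the SLC17 type, were higher in EcRts than at stage 8, a share near the 39.8% of all tested genes, and 4 had no call. CG3168, an SV2-like transporter, was at 15.9, 11.6 and 6.42 FPKM at stage 8, 24.8, 44.5 and 38.0 in wild-type stage 10, and 7.37, 16.5 and 7.66 in EcRts. Its wild-type libraries have the order of Uro, with a smaller spread of 1.79-fold in wild-type stage 10. Of the 5 EcKL genes, 0 had a call by limma, also at an unadjusted p under 0.05. Of the same 5, 4 are among the uneven genes that share the wild-type stage 10 library order of Uro. The remaining EcKL gene, CG6908, was at 0.392, 1.799 and 0.108 FPKM at stage 8, 5.10, 3.28 and 7.96 in wild-type stage 10, and 0.186, 0.263 and 0.343 in EcRts. Outside the 3 genes listed at 0 in EcRts, it had the lowest EcRts ratio of all members, 0.0485.

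A few more members now carry names. CG12721 (moon), which acts in germline piRNA transcription, was at 14.8, 19.6 and 15.7 FPKM at stage 8, 34.6, 38.4 and 34.1 in wild-type stage 10, and 17.5, 23.2 and 21.7 in EcRts. CG8596 (Cln7, a lysosomal membrane protein), CG10178 (Ugt301D1, a UDP-glycosyltransferase) and CG5144 (Argk2, an arginine kinase) had stage 10 means of 7.68, 7.43 and 5.16 FPKM. Of these 4, Ugt301D1 alone was higher in EcRts than at stage 8. CG33056 (Targ2), CG11120 (Mink) and CG12001 (spartin) had stage 10 means of 28.4, 19.2 and 13.9 FPKM. Each of them was higher in EcRts than at stage 8.

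Taken over all roles, 109 of the 113 genes could be tested in EcRts against stage 8. Of these, 67 were higher, beside 39.8% of all tested genes, 2 were lower, beside 21.6%, and 40 had no call. Since the rule favours a low stage 8 mean, these shares are not independent of the choice of the genes. The median difference was 0.88 (log2) over the tested members and 0.11 over all tested genes. Without the 13 uneven genes, 66 of 98 were higher and 2 lower. The EcRts libraries all exceeded the stage 8 libraries in 70 members, beside 43.6% of all tested genes. The 4 genes without a test were CG43090 and CG42705, which were below the filter on low values, and the overlapping heterochromatic genes CG17169 and CG17159, whose estimate had failed in EcRts replicate 1.

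The largest differences above stage 8 belonged to CG14187 at 3.34 ± 0.26 (limma adjusted p = 3.81e-05), CG14309 at 2.99 ± 0.33, CG42822 at 2.97 ± 0.25, CG34166 at 2.80 ± 0.54 and CG9990 at 2.64 ± 0.19. CG42822, coding for 112 residues, was at 0.581, 0.276 and 0.322 FPKM at stage 8, 19.6, 17.2 and 28.2 in wild-type stage 10, and 12.0, 6.60 and 12.0 in EcRts. CG34166, coding for 82 residues, was at 0.406, 0.770 and 1.57 FPKM at stage 8, 24.5, 23.9 and 37.4 in wild-type stage 10, and 30.1, 5.05 and 10.4 in EcRts. Its EcRts replicate 1 lies within the wild-type stage 10 range, and the other replicates lie well below it.

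The 2 genes lower in EcRts than at stage 8 had small stage ratios, and neither met the rule under any other scaling of FPKM. CG12129 was at 37.2, 30.6 and 34.7 FPKM at stage 8, 68.9, 68.7 and 72.2 in wild-type stage 10, and 24.7, 24.1 and 24.6 in EcRts. It differed from stage 8 by -0.46 ± 0.07 (log2, adjusted p = 0.000551), and its groups do not overlap. CG41378, on heterochromatic scaffold 2RHet, was at 25.8, 33.0 and 29.8 FPKM at stage 8, 56.4, 60.4 and 66.5 in wild-type stage 10, and 22.7, 26.4 and 23.6 in EcRts. Its difference of -0.27 ± 0.10 was lost without stage 8 replicate 2 or 3, wild-type stage 10 replicate 2, or EcRts replicate 1 or 3 (adjusted p from 0.0633 to 0.139), and when FPKM were scaled to the protein-coding total (adjusted p = 0.246).

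**Figure D5:**
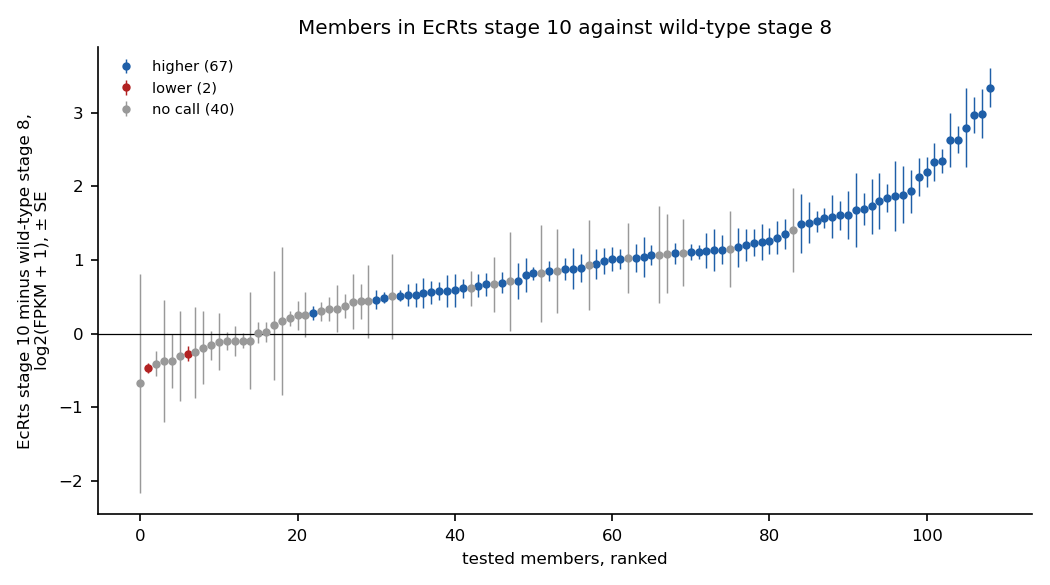
EcRts stage 10 minus wild-type stage 8 for the 109 tested members, ranked, as difference of mean log2(FPKM + 1) with its standard error. Blue points (67) are higher and red points (2) lower at an adjusted p under 0.05, and 40 grey points have no call; the highest is CG14187 at 3.34.

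Position was not used by the rule. Of the 113 genes, 28 (24.8%) lay within 10 kb of another member, in 13 runs, beside 8 of the 126 kept risers (6.35%) in 4 runs. Where current annotation gives the strand of both genes, 9 of 14 adjacent pairs were on the same strand. No share over all tested CG genes was taken for this distance. The runs include CG31926, CG31661 and CG18131 on 2L, with gaps of 274 and 19 bases. They also include the uneven EcKL genes CG10513, CG10514 and CG11892 on 3R and the uneven pair CG42704 and CG42705. Another run is CG17169 and CG17159, whose loci overlap. CG13113 and CG13114 lay 1018 bases apart on 2L, CG13084 and CG13083 957 bases apart on 2L, and CG42821 and CG42822 390 bases apart on 3R.

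Members of a run can differ in level. CG13113 was at 72.9, 72.3 and 108 FPKM in wild-type stage 10 and at 17.3, 31.3 and 13.1 in EcRts, while its neighbour CG13114 had means of 269 and 105. CG13083 and CG13084 were close in pattern, with means of 18.1, 149 and 64.2 FPKM and of 12.2, 99.4 and 42.5. CG42821 was at 4.87, 1.42 and 1.45 FPKM at stage 8, 67.9, 54.9 and 96.6 in wild-type stage 10, and 14.9, 19.6 and 24.4 in EcRts, so that 24.2% of its stage difference was present, beside 46.2% in CG42822. The genes of the other runs were mostly of moderate level. CG18131, next to the aspartic peptidase genes, was at 5.43, 3.87 and 6.45 FPKM in wild-type stage 10 and 0.628, 1.92 and 1.61 in EcRts, and was called higher than at stage 8 without EcRts replicate 1 (adjusted p = 0.0185). CG8596 (Cln7), 514 bases from CG14834, had a stage 10 mean of 7.68 FPKM beside 313 for its neighbour, and it shares its locus with lark. CG2990 and CG32694 on X, 3620 bases apart, were even among the wild-type stage 10 libraries.

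CG2990 was at 5.01, 3.96 and 4.10 FPKM at stage 8, 18.4, 18.4 and 17.9 in wild-type stage 10, and 11.7, 9.46 and 10.5 in EcRts. Its groups do not overlap, and it was higher in EcRts than at stage 8 (1.11 ± 0.09, log2). CG32694 was at 0.989, 0.435 and 0.302 FPKM at stage 8, 5.38, 5.46 and 5.22 in wild-type stage 10, and 3.20, 2.09 and 2.92 in EcRts, with the same order of groups. CG17169 and CG17159 share part of a locus on scaffold XHet, and reads there cannot be divided between them. CG17169 was at 7.36, 3.78 and 4.94 FPKM at stage 8, 61.2, 66.2 and 61.2 in wild-type stage 10, and 14.7, 14.7 and 16.2 in EcRts, the first EcRts value being a failed estimate.

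Some members lie beside named eggshell genes. CG43134 was 4486 bases and CG43135 5550 bases from Femcoat on X, and CG15570 and CG15571 were 18634 and 24571 bases from it. CG12116 was 1880 bases from the chorion gene Cp7Fa and 10311 bases from Cp36, and CG15347 was 9993 bases from Cp7Fa. CG16956 was 2166 bases from the vitelline membrane gene Vm34Ca on 2L.

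Within 30 kb of an eggshell gene of the list lay 8 members (7.08%), beside 5 of the kept risers (3.97%) and 1.28% of all tested CG genes, the eighth member being CG12123 at 28546 bases from Cp7Fa. CG15570 was at 39.7, 17.1 and 14.6 FPKM at stage 8, 159, 121 and 145 in wild-type stage 10, and 51.6, 80.6 and 25.5 in EcRts, where it overlaps stage 8 and had no call. It was called higher without stage 8 replicate 1 (adjusted p = 0.0158) or EcRts replicate 3 (adjusted p = 0.0161). CG15571, 775 bases from it, was at 4.35, 5.91 and 5.37 FPKM at stage 8, 42.6, 54.1 and 48.1 in wild-type stage 10, and 12.1, 33.6 and 14.0 in EcRts, and was higher than at stage 8. CG15347 was at 8.82, 13.6 and 7.78 FPKM at stage 8, 32.2, 30.03 and 31.2 in wild-type stage 10, and 7.28, 8.19 and 10.9 in EcRts. Its EcRts and stage 8 libraries overlap, and it had no call.

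CG12116 was at 0.640, 0.938 and 1.38 FPKM at stage 8, 6.84, 6.93 and 7.21 in wild-type stage 10, and 2.58, 1.77 and 1.98 in EcRts, higher than at stage 8. CG43135, next to CG43134, was uneven at stage 8, with 5.25, 12.0 and 1.16 FPKM, and stood at 15.4, 33.5 and 33.1 in wild-type stage 10 and 14.2, 4.61 and 10.4 in EcRts. CG16956 had means of 5.65, 24.2 and 9.70 FPKM and was 0.71 ± 0.25 (log2) above stage 8 in EcRts. Femcoat itself had means of 11.2, 96.6 and 40.5 FPKM, with no call in EcRts against wild-type stage 10 (limma adjusted p = 0.171).

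Gene structure is given as medians and shares without a test. The median member coded for 398.5 residues in 4 exons, the median kept riser for 336 residues in 3 exons, and the median tested CG gene for 392 residues in 3 exons. Proteins under 200 residues made up 23.1%, 19.8% and 18.7% of these sets. X carried 22.1% of the members and 18.3% of both other sets. The loci of 38 members overlap another listed gene, and for 23 of them that gene is expressed, so part of their reads may be shared.

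The 113 genes were chosen with all libraries, and the rule was also applied to part of them as a description. When the rule was applied to the libraries with 2 of the 3 replicate numbers, it chose 126, 113 and 101 genes with replicate 1, 2 or 3 held out. The held-out libraries met both ratios for 81 (64.3%), 73 (64.6%) and 84 (83.2%) of these genes. Among all CG genes at 5 FPKM, the same held for 3.22%, 3.56% and 3.89%. Those CG genes include the chosen ones, and 103, 97 and 96 of the chosen genes are among the 113. Nothing is therefore read from the shares about the 113 genes as a set.

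Thresholds cut through a continuous range. CG42666, CG12129 and CG41378 entered with stage ratios of 2.022, 2.048 and 2.069, and CG7130, CG12112 and CG13373 stayed out at 1.97, 1.96 and 1.89. On the mutant ratio CG11120, CG30096 and CG5065 were inside at 0.594, and CG12716, CG7668 and CG10641 outside at 0.601, 0.605 and 0.608. By level, CG42237, CG6043 and CG34120 were inside at 5.03, 5.05 and 5.07 FPKM, and CG7443, CG16995 and CG6508 outside at 4.97, 4.86 and 4.70.

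Named eggshell genes were set beside the 113 genes. Of 25 eggshell genes, 21 met the stage condition and 14 met the whole rule apart from the symbol. In EcRts against wild-type stage 10, 10 of the 25 were lower by the limma fit, beside 33.8% of all tested genes. Under the other scalings 8 to 11 were lower and up to 1 was higher. The chorion genes Cp36, Cp38 and Cp7Fc had EcRts ratios of 0.396, 0.343 and 0.302. Cp38 was at 5117, 4249 and 4507 FPKM in wild-type stage 10 and at 1301, 2224 and 1232 in EcRts. The vitelline membrane genes Vm26Aa, Vm26Ab and Vm34Ca had ratios of 1.18, 1.10 and 0.938 and no call, while Vm32E had 0.581. Quantile normalization called Vm26Ab lower (log2 difference -0.85). The call of Vm32E was lost with median-of-ratios and with protein-coding scaling (limma adjusted p = 0.0658 and 0.106). The members' own ratios are bounded by the rule and are not read against these.

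Of 21 ecdysone response genes, 17 were tested, and in EcRts against wild-type stage 10 6 were lower, beside 33.8% of all tested genes, and 3 higher, beside 9.93%. The split turned under each other scaling. It was 3 lower and 7 higher with protein-coding scaling, and 4 lower and 5 higher with both median-of-ratios scaling and quantile normalization. Eip74EF, an ecdysone-induced ETS factor, was at 3.01, 2.95 and 2.54 FPKM at stage 8, 10.4, 11.1 and 12.0 in wild-type stage 10, and 4.94, 4.70 and 5.26 in EcRts (log2 difference from wild-type stage 10 -1.03, limma adjusted p = 0.000113). It alone of the 21 met the whole rule apart from the symbol, and it was lower under each scaling. Cyp18a1, an ecdysone-degrading enzyme, was lower as well, with means of 16.7 and 10.98 FPKM, although not with protein-coding scaling (adjusted p = 0.0520), and ImpL2, a secreted insulin-binding protein, with means of 86.4 and 43.7. Eip75B, by contrast, had means of 14.2 and 14.7 FPKM in the 2 stage 10 groups, with no call (adjusted p = 0.615). The 3 genes called higher in EcRts were the nuclear receptor genes Hr4, with means of 2.13 and 4.51 FPKM, Hr46, with 3.46 and 5.78, and usp, with 50.4 and 58.1.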

How the data were processed

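Gene-level FPKM values, deposited by the authors with confidence limits and a status per gene, were made with CASAVA 1.8.2, Bowtie2 2.0.6, TopHat2 2.0.7 and Cufflinks 2.02 on build dm3, per the submitters' processing notes. The annotation release and the strand setting are not stated in those notes. FPKM were used as deposited, with no further scaling. 5 symbols turned into dates were restored from gene identifiers. Locus positions are printed from 1 in dm3; structure, strand and current names come from a current Ensembl annotation (108 of 113 members matched by identifier). Sequences of promoters and proteins were not analysed here.

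A gene was tested if 3 or more of the 9 libraries had 1 FPKM or more. 130 genes with a failed estimate in a library, or with too many fragments for an estimate (18 genes, listed there at 0), were left out. Sums of FPKM include them as listed. Values were taken as log2(FPKM + 1), which understates changes of low genes, and fitted with 1 mean per group, an intensity trend and 6 residual degrees of freedom (limma 3.58.1 under R 4.3.3). Adjusted p-values are Benjamini-Hochberg. The fit was tested on simulated data. Fragments behind a value were derived from its confidence limits and were 92.0, 446 and 242 in the median member library of stage 8, wild-type stage 10 and EcRts. CG13380 carries a low-data status in all 9 libraries. Depth per gene covers counting error only.

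The members, roles and gene lists were chosen with earlier results of these data known. Named are the 10 most abundant members, the 6 with the largest stage ratio and the 6 with the lowest mutant ratio. Named too are the 5 largest and smallest calls against stage 8 in each direction and members within 10 kb of another. Members with a sure role and the genes next to each threshold complete the choice. The other members with a current name are given as well. The uneven members were singled out after their values were seen. Alternatives covered scaling, pseudocount, filter, variance prior, pairing, libraries left out and the thresholds. Figures used matplotlib 3.10.9, and tables used pandas 2.3.3 and numpy 2.4.6, under Python 3.11.15.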

Additional observations from a re-analysis of the deposited data

How the results depend on the processing

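The number of CG genes that met the rule was 85 with median-of-ratios scaling, 82 with protein-coding scaling and 97 with quantile normalization, in each case a subset of the 113. Under none of these 3 scalings was the rule met by CG33970 (osy), CG5065, CG12721 (moon), CG11120 (Mink), CG12001 (spartin), CG2990, CG12517, CG12129 or CG41378, among others. CG14309 failed it with protein-coding scaling and quantile normalization. CG34120 (ldd), CG4822 and CG42237 failed it with median-of-ratios and protein-coding scaling. The 4 genes above 50% of the stage difference all failed it with protein-coding scaling. The count was 103 to 119 when each library was left out in turn, and 86 and 142 with a mutant ratio of 0.5 and 0.7. It was 43 when every single library had to pass, a setting chosen after seeing the data. The median tested gene differed between EcRts and stage 8 by 0.11 (log2) as deposited. Under the 3 scalings in the same order it differed by 0.03, 0.23 and 0.02. From stage 8 to the later wild-type stage it differed by 0.20 as deposited, and by 0.007, 0.14 and 0.006 under these scalings. From wild type to EcRts at that later stage it differed by -0.12 as deposited, and by 0.0002, 0.07 and -0.004. As deposited, the median tested gene thus moved in the direction of both ratio conditions of the rule. The shares of all tested genes called higher or lower were taken as deposited, with these shifts in them. The median share of the stage difference present in EcRts was 32.9% with protein-coding scaling, and 23.8% to 27.7% with a library left out. Members higher in EcRts than at stage 8 numbered 60 to 74 over the other settings of scaling, pseudocount, filter, variance prior and libraries in the fit, and 59 to 72 with a library left out. Members lower numbered 1 with protein-coding scaling, without a filter and without the intensity trend, and 1 to 3 with a library left out. Of 1149 values of the 58 named members under alternatives, 1112 stayed on their side of the threshold, 29 lost their call, 8 gained one and 0 changed direction while called; these changes touched 8 members.

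Replicate numbers are shared by the groups in the labels. Deviations from group means correlated at -0.04 to 0.23 between same-numbered libraries, with 2 of 9 pairs over 0.1, where a pairing would need every pair over 0.1. The own number was the best match in 5 of 18 comparisons of a library with another group, and 0 of the 9 libraries matched their own number best in both other groups. With the replicate block 65 members were higher and 2 lower in EcRts than at stage 8.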
